A study of Bos taurus with 60 samples.

Results

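The bovine microRNAs (miRNAs) numbered from bta-miR-2290 to bta-miR-2489 were described in 60 small RNA libraries of the cattle intestine. They were chosen by name alone, as every entry of the deposited count table whose number lies in this range, with any letter or arm suffix. This gave 131 of the 608 miRNAs in the table. The other 477 miRNAs served as the comparison, and among them the 48 members of the miR-2284 and miR-2285 family, another group of miRNAs named in cattle.

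A miRNA is a short RNA cut from a hairpin precursor by the enzymes Drosha and Dicer. It is loaded into an Argonaute protein and pairs through its seed with sites in messenger RNAs, which are then translated less or degraded. Either arm of the hairpin can be kept, and the suffixes -5p and -3p name the arm. Numbers are given in the order in which miRNAs are registered, and this run of numbers was registered mostly from cattle sequences. A few members have counterparts of the same name in other mammals, such as miR-2355 and miR-2467 in human and miR-2320, miR-2411 and miR-2483 in pig. Many miRNA genes lie in introns of protein-coding genes and can be made from the host transcript. Targets of most of these miRNAs are not well established, so the members are placed below by the gene they lie in where it is known.

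The 60 libraries came from 10 British × Continental feedlot steers. Of these, 5 were super-shedders (SS), whose feces held Escherichia coli O157 in high numbers, and 5 were non-shedders (NS), whose feces were negative for it. The labels name no treatment of either group. Each steer gave snap-frozen tissue of 6 regions, collected after slaughter. These were the small intestine (duodenum and both ends of the jejunum) and the large intestine (cecum, spiral colon and descending colon). Each region thus had 5 SS and 5 NS libraries, and the steer is the biological replicate. Shedding was classed from feces of the live animals, so a group is defined by shedding at that time. By the paper, a single SS steer was still at the super-shedding level at slaughter, and the others were positive below it.

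The libraries held 535373 to 19346766 counts, with a median of 1.61 M in SS and 1.95 M in NS. Levels are given as CPM, the counts per 1000000 counts of the library. In the smallest library 3 counts, the upper limit that a count of 0 allows, equal 5.60 CPM, and in the largest 0.155 CPM. Reads carried no molecular identifiers, so these limits cover counting error only. All 28 marker miRNAs looked up were counted, but 4 libraries of steer SS299 stood apart from the others. In its duodenum, proximal jejunum, distal jejunum and descending colon the summed level of 4 neuronal and endocrine miRNAs was 81.4 to 141 CPM, against 650 to 15160 CPM in the other 56 libraries. The 8 epithelial miRNAs summed to 1512, 2477 and 2803 CPM in the jejunal and descending colon libraries of SS299, against at least 16224 CPM in the others, so that epithelium, a main tissue of the gut lining, was hardly seen in these 3. The SS299 duodenum held 11827 CPM of bta-miR-122, a miRNA of the liver, against at most 51.9 CPM elsewhere. Its descending colon held 14942 CPM of erythrocyte markers, against at most 2781 CPM in the other 56 libraries. The labelled tissue of these 4 libraries is therefore in doubt, and it bears on every SS299 value of these regions below. They were kept under their labels. Fits without them are an alternative chosen after seeing the data, and their values are given beside the leading results that they change. The NS108 cecum and NS242 descending colon libraries were high in endothelial and low in smooth muscle markers, with values given at the end. In bulk tissue, fewer cells of a type and less miRNA per cell cannot be told apart.

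Most members were rare. No count in any library was listed for 4 members, 39 had a count in 1 to 5 libraries, 50 in 6 to 29, 30 in 30 to 59, and 8 in all 60. Together the members held 22086 counts over the 60 libraries, of which the 4 most abundant held 12792, and 57 members had at most 10 counts in all. A member was called detected where its CPM was above 1, the level used by the study. By this measure 37 members were detected in no library, 80 in 1 to 29 libraries and 14 in at least 30. In at least 3 libraries of every region 14 members were detected, 12 of them among the 14 above, and 40 members were so in at least 1 region. Only bta-miR-2299-5p, bta-miR-2336 and bta-miR-2419-5p were detected in all 60 libraries.

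**Figure D1:**
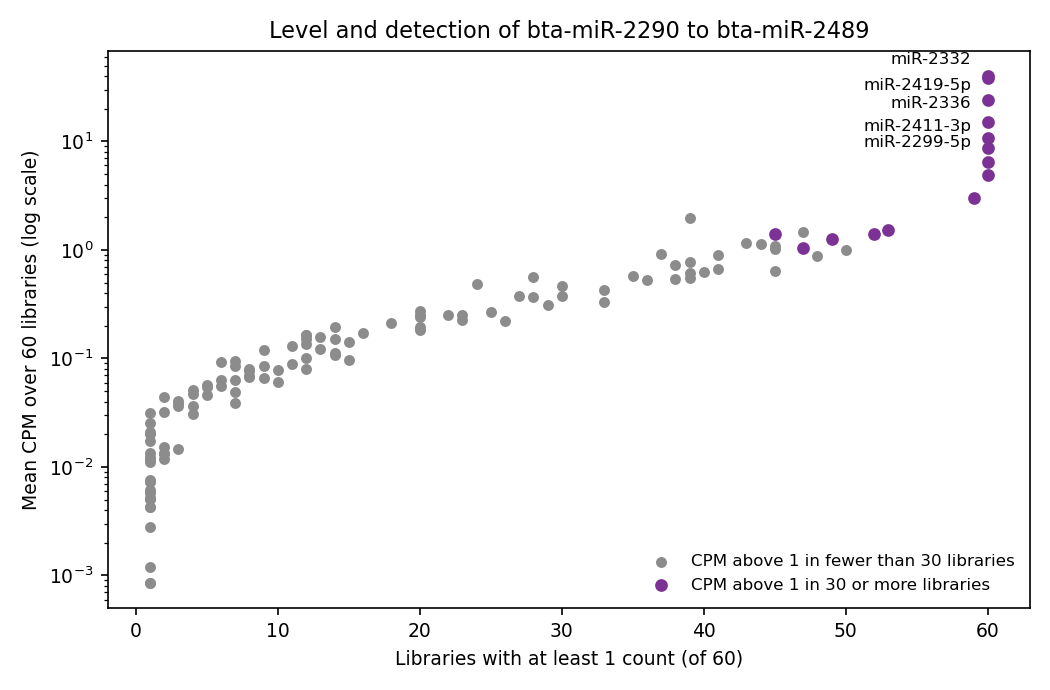
Each point is 1 of the members with a count; the x axis is the number of the 60 libraries with at least 1 count and the y axis the mean level over them in CPM on a log scale, and purple marks the 14 members with a CPM above 1 in at least 30 libraries. The 8 members counted in all 60 libraries lie at the upper right, 5 of them above 10 CPM and 0 above 100 CPM, where 128 miRNAs of the whole table lay.

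Within every steer a smaller share of the members was detected than of other miRNAs. Averaged over the 6 libraries of a steer, 14.9% ± 3.78 of the members had a CPM above 1, against 65.0% ± 2.30 of all other miRNAs (SD, n = 10 steers). The share was lower in 10 of 10 steers, with p = 0.00195 in an exact two-sided permutation test, the smallest p that 10 steers allow. The miR-2284 and miR-2285 family, at 35.1% ± 4.04, lay between these, and the members were again lower in 10 of 10 steers (exact two-sided permutation p = 0.00195). Both tests take the steer as the unit, so their p-values measure agreement between steers and not the variation between miRNAs. The median of the mean levels was 0.119 CPM over the members, 0.444 CPM over the family and 6.24 CPM over all other miRNAs.

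The most abundant member was bta-miR-2332, at 40.0 ± 55.0 CPM over the 60 libraries (SD), with a lowest value of 0.168 and a highest of 249 CPM. In the RefSeq annotation of the ARS-UCD2.0 assembly it lies within the span of UTP6, which encodes a factor for assembly of the small ribosomal subunit. Next came bta-miR-2419-5p, which lies in no other annotated gene, at 38.6 ± 36.8 CPM (2.82 to 172 CPM). These 2 miRNAs made up 21.4% and 20.7% of the summed mean level of all members, and the 10 most abundant members made up 82.3%. Their SDs were close to or above their means, so that neither can be said to exceed the other.

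The third member by level, bta-miR-2336, averaged 24.2 ± 13.6 CPM and also lies in no other annotated gene. At 14.98 ± 26.5 CPM followed bta-miR-2411-3p, within the span of UBAP2L, whose protein takes part in stress granules. The steadiest abundant member was bta-miR-2299-5p, within B3GLCT, which encodes a sugar transferase. It averaged 10.7 ± 2.99 CPM, and its region means lay between 9.71 and 11.9 CPM. Lower levels were those of bta-miR-2484 (8.65 ± 7.88 CPM), bta-miR-2424 (6.51 ± 10.1 CPM), bta-miR-2310 (4.92 ± 4.06 CPM), bta-miR-2431-3p (3.0 ± 2.28 CPM) and bta-miR-2404 (1.97 ± 3.96 CPM). Neighbours in this order overlapped widely across libraries. Of these, bta-miR-2424 lies within NCAPD2, a subunit of the condensin complex that compacts chromosomes, and bta-miR-2431 within a long non-coding RNA.

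Of the 131 members, 128 were matched by name to this annotation. The span of a protein-coding gene held 105 of them, another kind of gene alone held 5, and 18 lay in no other gene. The others named below include bta-miR-2376 within TAPBP, which loads peptides onto MHC class I, bta-miR-2427 within FRS2, an adaptor of fibroblast growth factor receptors, and bta-miR-2446 within HELQ, a DNA helicase.

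An arm suffix was carried by 49 members, and 19 hairpins had both arms in the table. More counts came from the 5p arm in 10 of these, more from the 3p arm in 7, and the arms were equal in 2. For bta-miR-2299 the 5p arm held 1929 counts and the 3p arm 49, and in the 50 libraries with at least 10 counts of the pair the 5p share was 97.8% ± 3.71 (SD). The hairpin of bta-miR-2411 leaned the other way, with 128 counts for 5p and 1301 for 3p and a 5p share of 12.4% ± 15.01 in 40 libraries. In the 14 libraries with at least 30 counts of this pair it was 5.49% ± 6.48. For bta-miR-2431 the 5p share was 23.1% ± 13.6 in 19 libraries. The next most counted pairs, bta-miR-2483 within TENM1 and bta-miR-2320, had 5p shares of 64.8% ± 18.4 in 7 libraries and 64.7% ± 23.8 in 3. Thus the hairpins of bta-miR-2299 and bta-miR-2411 were each dominated by a single arm, opposite in the 2 cases, while the last 2 pairs had too few counted libraries to place.

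How many members were detected moved with depth. In the 8 libraries under 1000000 counts, where a single count gives a CPM above 1, between 31 and 41 members were detected, against 6 to 28 in the other 52. Over the 60 libraries the correlation of this number with the total, both on a log2 scale, was -0.73, while the number of members with at least 1 count correlated with the total by 0.67. After every library was thinned to the smallest total, the 8 shallow libraries still listed 22 to 41 members with a count and the other 52 listed 11 to 33. The summed share of counts taken by the members also correlated with the total, by -0.72. These correlations are given as a description; the libraries share steers and regions.

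**Figure D2:**
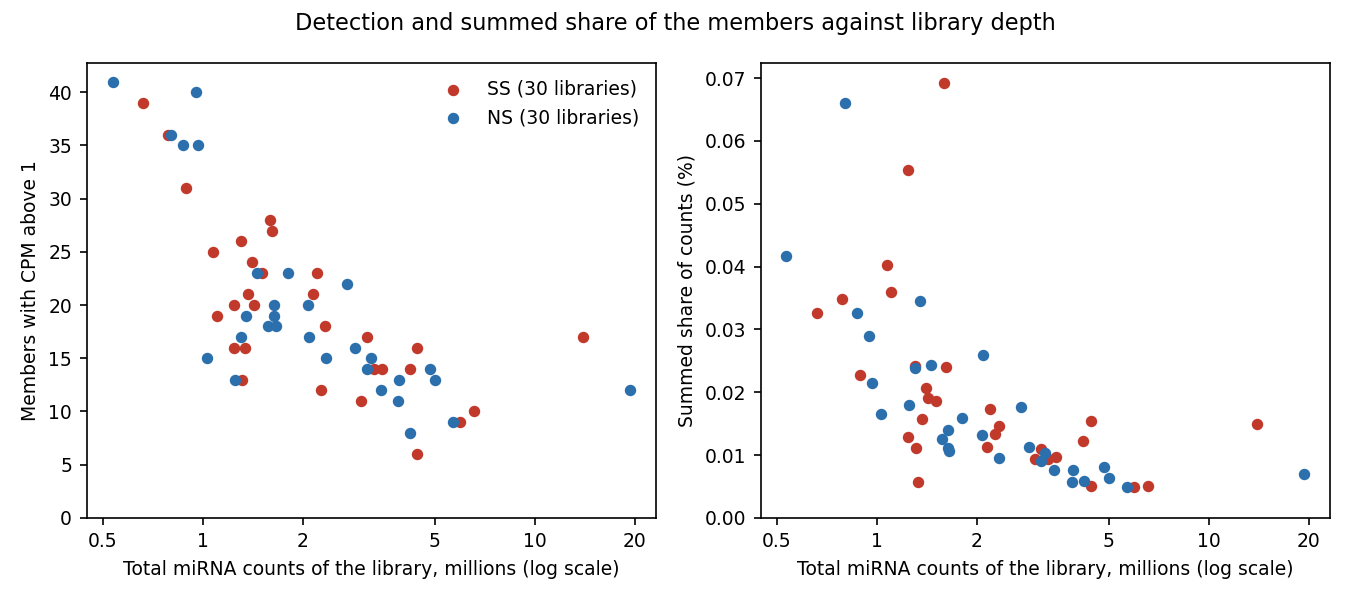
Each point is 1 library (SS red, NS blue); the x axes give the total miRNA counts on a log scale, and the y axes the number of members with a CPM above 1 and the summed share of counts of the members in percent. Both measures are lower in deeper libraries, and the 8 libraries under 1000000 counts have 31 to 41 members with a CPM above 1.

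The first question of the design was whether SS and NS differed within a region. The number of members detected was 19.4 ± 5.86 in SS and 21.6 ± 10.7 in NS for the duodenum (SD, n = 5 each). For the proximal jejunum it was 22.4 ± 12.5 in SS and 21.4 ± 8.79 in NS, and for the distal jejunum 21.2 ± 10.6 in SS and 23.2 ± 10.4 in NS. In the large intestine it was 19.6 ± 2.97 in SS and 17.4 ± 9.94 in NS for the cecum, 18 ± 6.96 in SS and 17 ± 3.94 in NS for the spiral colon, and 16.6 ± 6.69 in SS and 16 ± 11.1 in NS for the descending colon. The differences were smaller than the spread within a group in every region (exact two-sided permutation tests, all adjusted p = 0.937 over 6 regions).

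The members' summed share of counts did not pass the test either. It ranged over the regions between 0.0131% and 0.0267% in SS and between 0.0101% and 0.0324% in NS (means), with an adjusted p of 0.857 in all 6 regions. For the duodenum it was 0.0209% ± 0.00951 in SS and 0.0142% ± 0.00848 in NS, and for the cecum 0.0142% ± 0.00290 in SS and 0.0124% ± 0.0114 in NS. These values included a shallow NS library in each region, NS242 in the duodenum (951834 counts) and NS108 in the cecum (875432 counts), whose shares of 0.0290% and 0.0327% lay above the other NS libraries. Without libraries under 1000000 counts, an alternative chosen after seeing the data, the SS share was higher by 0.0105 percentage points in the duodenum and by 0.00685 in the cecum, each with an adjusted p of 0.0476 (exact two-sided permutation p = 0.0159, the smallest that 5 against 4 libraries allow). The highest SS share of the duodenum, 0.0359%, was that of SS299, and with that library left out too the difference was 0.00674 points (exact two-sided permutation p = 0.0286, the smallest for 4 against 4, adjusted p = 0.0857). With bta-miR-143, a smooth muscle marker, left out of the totals, the groups overlapped in both regions. In the cecum NS745 had 0.0213%, above SS274 (0.0201%), SS299 (0.0195%) and SS310 (0.0204%). In the duodenum SS274 had 0.0155%, below the kept NS libraries (0.0191% to 0.0248%). The kept NS cecum libraries held 2344024 to 4995993 counts, against 1370244 to 4421044 in SS. The part of depth and of smooth muscle was not tested.

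No member differed between SS and NS in any region at a false discovery rate of 10% in edgeR's quasi-likelihood test with Benjamini-Hochberg adjustment over all miRNAs tested. A miRNA was tested where its CPM was above 1 in at least 3 steers of either group, which left 18, 20, 22, 21, 14 and 14 members from the duodenum to the descending colon. Among all miRNAs tested, the same threshold called 0.293%, 0.282%, 0.592%, 0.292%, 0.898% and 0% in this order of regions. At an unadjusted p under 0.05 the members gave 0, 3, 2, 2, 0 and 0, beside 4.4%, 11%, 10.1%, 7.89%, 8.68% and 3.02% of all miRNAs. On the 6 libraries of a steer summed, 0 of 17 members passed, beside 0.583% of all miRNAs, and 1 had an unadjusted p under 0.05, beside 10.2%. DESeq2, limma-voom and edgeR's exact test also called 0 members in every region; their counts at an unadjusted p under 0.05 were 1, 3, 3, 2, 0 and 0 for the exact test, 1, 2, 2, 2, 1 and 0 for DESeq2 and 0, 3, 3, 1, 1 and 0 for limma-voom.

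The member with the smallest p was bta-miR-2419-5p in the cecum. Its level was 30.7, 20.8, 55.4, 27.4 and 60.6 CPM in the SS steers SS274, SS287, SS294, SS299 and SS310, against 26.3, 8.0, 6.67, 19.2 and 10.8 CPM in the NS steers NS108, NS152, NS165, NS242 and NS745. The groups overlapped in a single NS steer, NS108, which lay above SS287. The log2 difference was 1.26 (SE 0.40), with an unadjusted p of 0.00871 and an adjusted p of 0.372 in edgeR; DESeq2 gave the lowest adjusted p for this member over all alternatives, 0.109. It was also the leading member in the duodenum and the spiral colon, with a log2 difference of 1.11 in each. On summed counts it was 19.2, 35.9, 35.8, 26 and 63.0 CPM in the SS steers and 15.8, 11.7, 6.35, 44.7 and 24.7 CPM in the NS steers, a log2 difference of 0.87 (SE 0.39, edgeR adjusted p = 0.475).

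In the distal jejunum bta-miR-2431-3p led. It was 2.14, 1.27, 5.18, 7.0 and 1.87 CPM in the SS steers, against 1.87, 0.962, 1.53, 1.37 and 1.94 CPM in the NS steers, and the groups overlapped. The log2 difference of 2.33 (SE 0.83, edgeR adjusted p = 0.306) became 1.26 without SS299, whose library of this region is among those that stood apart. The reverse order was seen for bta-miR-2313-3p, within GRAMD1B, a gene for a cholesterol transfer protein. It was 0.428, 0, 0, 0 and 1.87 CPM in SS and 1.87, 0.481, 4.59, 2.06 and 6.79 CPM in NS, a log2 difference of -2.51 (SE 0.93, edgeR adjusted p = 0.306). Next by p was bta-miR-2318, within MADD, with a log2 difference of -2.34 (edgeR unadjusted p = 0.0509). Both bta-miR-2313-3p and bta-miR-2318 met the filter only in NS, where they were higher, so the filter favoured this difference.

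In the proximal jejunum 3 members had an unadjusted p under 0.05. The minor arm bta-miR-2431-5p was 1.52, 0, 3.37, 1.51 and 0.806 CPM in SS and 0, 0.368, 0, 1.25 and 0 CPM in NS, a log2 difference of 2.71 (SE 0.90, edgeR adjusted p = 0.317). For bta-miR-2376 the levels were 1.52, 10.6, 1.12, 1.01 and 1.61 CPM in SS and 1.48, 0.368, 0, 0 and 0.959 CPM in NS, a log2 difference of 2.12 (SE 0.75). Lower values in SS were those of bta-miR-2320-5p, at 0.762, 0, 1.12, 0.168 and 0 CPM in SS and 0.738, 1.84, 0.800, 4.99 and 2.40 CPM in NS, a log2 difference of -1.89 (SE 0.73). These levels rest on few counts, and the groups overlapped for each of the 3. Each met the filter only in the group where it was higher. The filter thus favoured a difference, and these values are a description. Without the SS299 library bta-miR-2431-5p was no longer tested.

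Of the remaining leading members, bta-miR-2478 in the cecum was 1.46, 0.641, 0, 0.930 and 0.679 CPM in SS and 2.28, 0.258, 0.770, 2.56 and 2.60 CPM in NS, a log2 difference of -1.58 (SE 0.69). For bta-miR-2415-3p, tested in 5 regions, the log2 differences did not pass the test and were -0.47 in the duodenum and positive in the distal jejunum (1.35), cecum (1.56), spiral colon (1.13), descending colon (1.4) and summed counts (0.91). Without the 4 SS299 libraries the duodenal value was -0.96. This member had no count in 2 of the NS steers, as described below. In the duodenum the next members by p were bta-miR-2318 (log2 difference 1.86) and bta-miR-2313-3p (-1.33), in the spiral colon bta-miR-2336 (0.44), and in the descending colon bta-miR-2431-3p (0.70) and bta-miR-2419-5p (0.58). The sign of bta-miR-2318 thus differed between the duodenum and the distal jejunum, and the difference between regions did not pass its test, given below. In each region named in this paragraph, bta-miR-2478, bta-miR-2415-3p, bta-miR-2318 and bta-miR-2313-3p met the filter only in the group where they were higher. The filter thus favoured a difference, and their values are a description.

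Direction over the regions was uneven. Of the 30 members tested in at least 1 region, 9 were tested in all 6, and of these bta-miR-2419-5p (log2 differences of 0.55 to 1.26) and bta-miR-2431-3p (0.25 to 2.33) were higher in SS in all 6, and 0 were lower in all 6. Without the 4 SS299 libraries bta-miR-2431-3p turned to -0.35 in the duodenum and was 0.18 in the proximal jejunum, against 0.40 and 1.09 with them, while bta-miR-2419-5p stayed positive. The 6 regions share their steers and are not independent. From the duodenum to the descending colon, the median log2 difference of the tested members was -0.19, 0.24, 0.37, 0.15, 0.07 and 0.40, beside 0.00, 0.11, 0.06, -0.01, -0.03 and 0.04 over all miRNAs tested. Scaling by library size alone, which moved the median of all miRNAs to 0.22 in the duodenum and to -0.11 in the proximal jejunum, turned the members' medians of these regions to 0.04 and -0.03. Whether the SS against NS difference varied between regions was tested with the steer as a term, and 0 of 30 members passed (0% of the 381 miRNAs tested; 0 members at an unadjusted p under 0.05; smallest adjusted p = 0.960, edgeR F test).

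**Figure D3:**
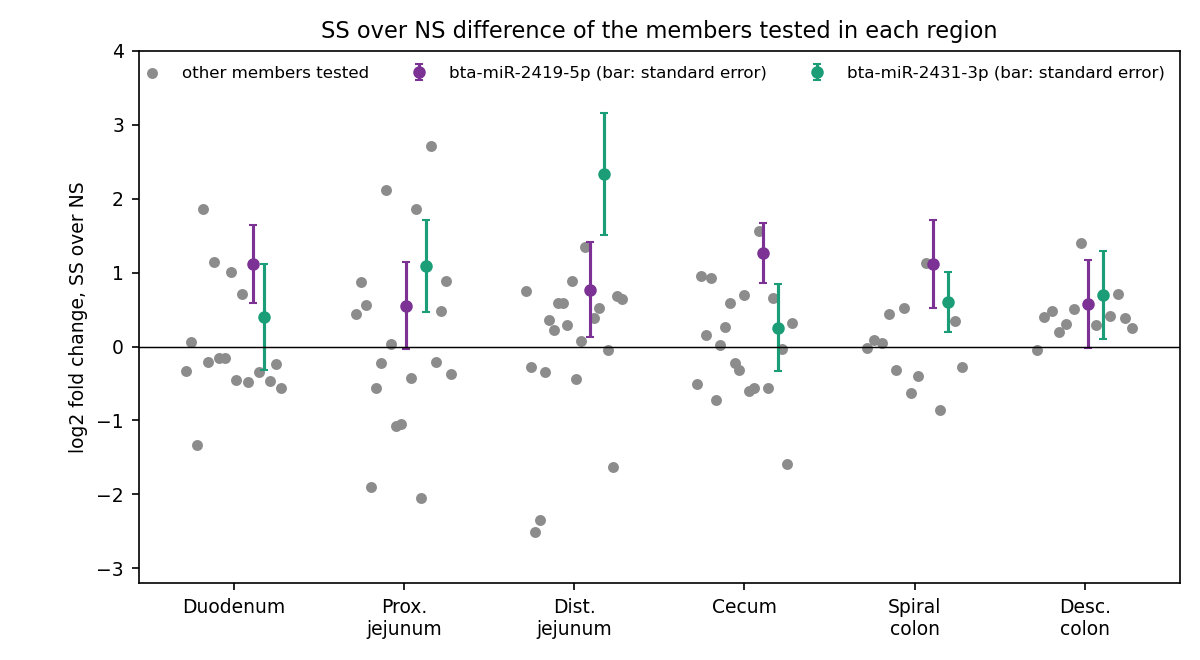
Each point is the log2 fold change, SS over NS, of 1 member tested in a region, with the regions in order along the gut and standard error bars for bta-miR-2419-5p and bta-miR-2431-3p. Both of these lie above 0 in all 6 regions, although bta-miR-2431-3p lay at -0.35 in the duodenum without the SS299 library; the other members lie on both sides, and 0 points pass a false discovery rate of 10%.

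Along the gut, 5 of the 30 members tested over all 60 libraries differed between regions (edgeR F test, FDR 10%), beside 116 of 381 miRNAs (30.4%). These were bta-miR-2411-3p (adjusted p = 0.00496), bta-miR-2424 (0.00562), bta-miR-2332 (0.0458), bta-miR-2446 (0.0781) and bta-miR-2427 (0.0860). With the steer as a block, since the libraries pair by animal, 4 passed and bta-miR-2446 did not. Of the 5, bta-miR-2446 met the filter only in the NS distal jejunum and bta-miR-2427 only in the NS proximal jejunum, where each was high. With each steer left out in turn, both were tested in 7 of 10 fits. Their calls changed in 5 of these for bta-miR-2446 and in 4 for bta-miR-2427. Without steer SS310 the test called 0 members (smallest adjusted p = 0.211), and without SS299 it called 10. Without the 4 SS299 libraries that stood apart it called 8, an alternative chosen after seeing the data. These counts stand without the share of all miRNAs called in the same fits.

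The large intestine was then set against the small intestine. Of the 30 members, 4 were lower in the cecum and colon than in the duodenum and jejunum and 0 were higher, beside 16.5% lower and 14.7% higher among all miRNAs, 31.2% in all. In SS and NS steers together, bta-miR-2332 was 18.7 ± 12.8 CPM in the large and 61.3 ± 43.7 CPM in the small intestine (SD of the steers' means, n = 10). Per steer it ranged from 3.50 to 44.5 CPM with a median of 15.3 in the large intestine, and from 20.8 to 147 CPM with a median of 51.6 in the small intestine. It was lower in the large intestine in 10 of 10 steers although the ranges overlapped, with a log2 difference of -1.53 (SE 0.40, edgeR adjusted p = 0.00329). In SS299 this order held only through its duodenum library that stood apart, at 158 CPM, against 0.168 and 5.33 CPM in its jejunum. Without the 4 SS299 libraries the log2 difference was -1.50.

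The other 3 are an arm of the UBAP2L hairpin, the NCAPD2 miRNA and bta-miR-2484, which lies within an uncharacterised locus. For bta-miR-2411-3p the steers' means were 6.46 ± 4.34 CPM in the large and 23.5 ± 22.6 CPM in the small intestine, lower in 9 of 10 steers, with a log2 difference of -1.37 (SE 0.40, edgeR adjusted p = 0.00999). For bta-miR-2424 they were 3.39 ± 2.38 CPM in the large and 9.64 ± 9.42 CPM in the small intestine, lower in 7 of 10 steers (log2 difference -0.96, SE 0.36, edgeR adjusted p = 0.0480). For bta-miR-2484 they were 6.01 ± 2.24 CPM in the large and 11.3 ± 6.57 CPM in the small intestine, lower in 8 of 10 steers (log2 difference -0.62, SE 0.24, edgeR adjusted p = 0.0490). The order of bta-miR-2411-3p in SS299 also held only through its duodenum library, at 23.5 CPM, against 0.671 and 0.304 CPM in its jejunum.

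These calls leaned on single animals. Without SS310 only bta-miR-2332 passed (log2 difference -1.08, edgeR adjusted p = 0.0540), while bta-miR-2411-3p had -0.76 (0.166), bta-miR-2424 -0.49 (0.314) and bta-miR-2484 -0.38 (0.223). Without NS242, bta-miR-2424 (-0.77, 0.180) and bta-miR-2484 (-0.60, 0.117) did not pass, and without NS745 bta-miR-2484 did not. Without SS299, and likewise without its 4 libraries that stood apart, 8 members passed. The added ones were bta-miR-2310 (log2 difference -0.51) and bta-miR-2318 (-0.95), which were lower in the large intestine, and bta-miR-2299-5p (0.38) and bta-miR-2431-3p (0.56), which were higher there, all without the 4 libraries. Of these, bta-miR-2318 met the filter only in groups of the small intestine, where it was higher, so the filter favoured its difference. The shares of all miRNAs called in these fits are not given. The median depth was 3.06 M counts in the large and 1.49 M in the small intestine, and the summed epithelial and leukocyte markers had medians of 84459 and 3584 CPM in the large and of 180253 and 7913 CPM in the small intestine. Their part in these differences was not tested. Over the 30 members the median log2 difference was -0.22 with 23 negative, beside -0.01 over all miRNAs. Under library size alone, which moved the median of all miRNAs to -0.23, it was -0.41 with 26 negative.

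The levels were highest in the jejunum and spread widely there. For bta-miR-2332 the lowest, median and highest values were 7.24, 19.7 and 158 CPM for the duodenum, 0.168, 43.7 and 249 CPM for the proximal jejunum and 5.33, 38.9 and 225 CPM for the distal jejunum. In the large intestine they were 1.28, 9.50 and 120 CPM for the cecum, 2.00, 11.8 and 62.1 CPM for the spiral colon and 0.951, 9.16 and 54.7 CPM for the descending colon. The highest duodenal value and the lowest of both jejunal regions were those of SS299 libraries that stood apart. Every region held libraries below 10 CPM, but in both jejunal regions only SS299 did. The next lowest values were 12.96 CPM in the proximal jejunum of SS274 and 16.8 CPM in the distal jejunum of NS152. Every pair of regions overlapped. For bta-miR-2411-3p the medians were 5.69, 23.1, 17.0, 3.83, 3.78 and 3.72 CPM in the same order, and the highest value, 161 CPM, was in the proximal jejunum of NS242. The medians of bta-miR-2424 were 2.12, 9.43, 5.34, 2.13, 3.08 and 2.18 CPM, and its highest value was 46.9 CPM, in the distal jejunum. Those of bta-miR-2484 were 8.13, 12.5, 8.27, 5.34, 5.22 and 5.08 CPM, with a highest of 49.99 CPM in the distal jejunum.

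**Figure D4:**
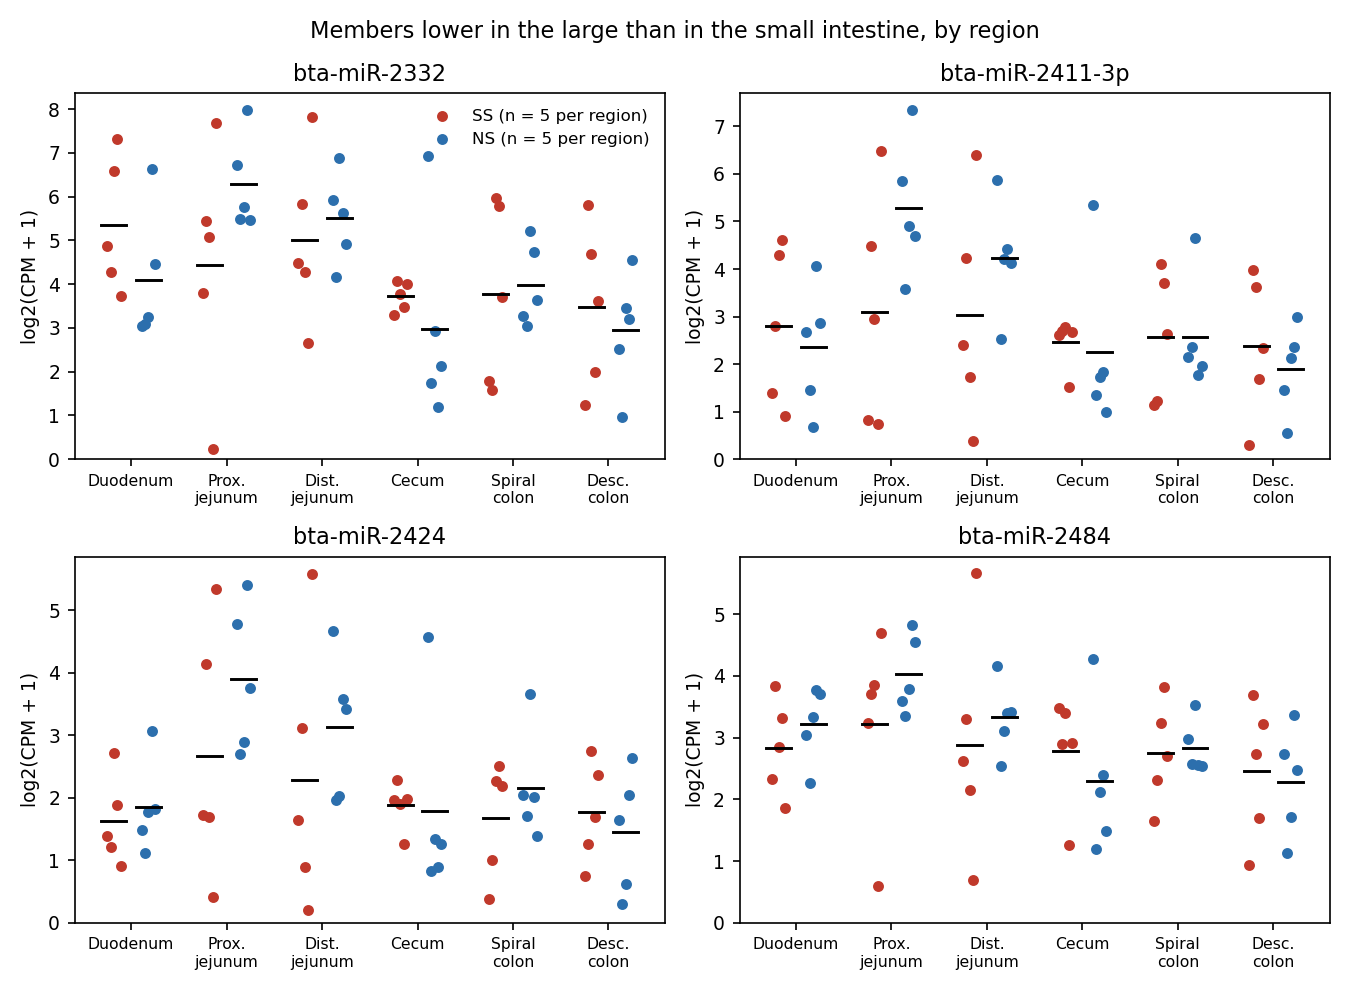
Levels of the 4 members that were lower in the large intestine, by region, with SS (red) left of NS (blue); each point is 1 library, the y axes are log2(CPM + 1) and lines mark the means of 5 libraries. The highest points lie in the jejunum, where values also spread most, and the groups overlap.

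These 4 members went up and down together across libraries. On a log2(CPM + 1) scale over the 60 libraries the correlation was 0.88 between bta-miR-2332 and bta-miR-2411-3p, 0.90 between bta-miR-2411-3p and bta-miR-2424, and 0.79 to 0.83 for the other 4 pairs. They come from different host genes. A miRNA outside the range, bta-miR-677, correlated with them by 0.82 to 0.88. All 4 were higher in libraries with more of the leukocyte markers (0.59 to 0.80) and of the epithelial markers (0.44 to 0.70), and lower in those with more of the smooth muscle markers (-0.32 to -0.46). They were also lower in deeper libraries, and bta-miR-2332 correlated with the total count by -0.64. The points share steers, regions and depth, and the values are a description.

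The abundant member bta-miR-2336 followed the leukocyte markers most closely, with a correlation of 0.89, and the epithelial markers with 0.81. It also correlated with the neuronal and endocrine markers (0.54), the smooth muscle markers (-0.51) and the total count (-0.63). These values are likewise a description. The miRNAs most like it were bta-miR-16b (0.89), bta-miR-142-5p (0.89) and bta-miR-425-5p (0.88). Of these, miR-142 is known from cells of the blood lineage and is itself among the leukocyte markers. For bta-miR-2419-5p the closest were bta-miR-1307 (0.70), bta-miR-2284w (0.68) and bta-miR-484 (0.67). For bta-miR-2431-3p they were bta-miR-125b (0.63), bta-miR-100 (0.57) and bta-miR-125a (0.56), so that neither followed another miRNA as closely as bta-miR-2336 did.

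Members detected mainly in a single region were few and low. By the rule of a CPM above 1 in at least 3 libraries of a region and in fewer than 3 of every other region, 7 of 131 members were named (5.34%), beside 16 of the 477 other miRNAs (3.35%), with no test of the difference. In the proximal jejunum these were bta-miR-2323 (3 of 10 libraries), bta-miR-2366 (3), bta-miR-2400 (3) and bta-miR-2427 (5). The distal jejunum had bta-miR-2446 (4), and the duodenum bta-miR-2344 and bta-miR-2474 (3 each). The margin was thin, since bta-miR-2344, bta-miR-2400, bta-miR-2427, bta-miR-2446 and bta-miR-2474 each reached the level in 2 libraries of another region, and all 7 had counts in 14 to 40 libraries over the whole gut.

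Steers of the same phenotype were then compared. With each steer's 6 libraries as its repeats, 11 of 30 members passed (edgeR F test of steers within phenotype, FDR 10%), beside 141 of 381 miRNAs (37%). By adjusted p they were bta-miR-2419-5p (0.000244), bta-miR-2425-5p (0.000283), bta-miR-2415-3p (0.00127), bta-miR-2431-3p (0.00858), bta-miR-2424 (0.0112), bta-miR-2404 (0.0137), bta-miR-2484 (0.0306), bta-miR-2427 (0.0382), bta-miR-2336 (0.0501), bta-miR-2411-3p (0.0512) and bta-miR-2411-5p (0.0584). Of these, bta-miR-2427 met the filter only in the NS proximal jejunum and bta-miR-2411-5p only in the NS cecum. They had 53 and 128 counts in all, so their calls rest on few counts. The libraries of a steer share the animal and its handling, and these cannot be told apart. Without SS310 the test called 6 members and without SS299 7. Without the 4 SS299 libraries that stood apart it called 5, which were bta-miR-2404, bta-miR-2415-3p, bta-miR-2419-5p, bta-miR-2424 and bta-miR-2425-5p. The order of the 2 counts thus turned round with SS299. With all libraries 11 members passed for steers and 5 for regions. Without SS299 it was 7 for steers and 10 for regions, and without its 4 libraries 5 for steers and 8 for regions. The shares of all miRNAs called in these refits are not given, so the turn cannot be read as particular to the members.

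A difference seen in every library of a steer was that of bta-miR-2415-3p, which had no count in NS242 and NS745. Its hairpin lies within a long non-coding RNA. In all 12 libraries of these 2 steers it had 0 of 23844508 counts, which allows up to 0.126 CPM. The other 8 steers gave counts in 44 of 48 libraries, 156 counts in all or 1.08 CPM, so that it was at least 8.55-fold lower in the 2 steers, with the floor of 3 counts taken over their libraries together. Every one of the other 8 steers had at least 5 libraries with a count, and the medians per steer were 0.767, 1.56, 1.49, 2.79 and 1.05 CPM in SS274, SS287, SS294, SS299 and SS310 and 1.73, 0.863 and 0.559 CPM in NS108, NS152 and NS165. The test of steers kept this member with each steer left out in turn (edgeR adjusted p = 0.000174 to 0.0190). Of the 608 miRNAs, 2 had this pattern of no count in every library of at least 1 steer and counts in at least 80% of the other libraries. The other was bta-miR-2284j, without a count in SS310, which was named after its values were seen.

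For bta-miR-2425-5p, within NCKAP5L, NS242 again had 0 counts in 6 libraries, of 8167847 counts, which allows up to 0.367 CPM. The other 9 steers had counts in 37 of 54 libraries (147 counts, 0.915 CPM), so it was at least 2.49-fold lower in NS242. In SS274 and in NS165 it had 1 count each, in 1 of 6 libraries. The highest median was 1.92 CPM, in SS299, where 4 of the 6 libraries are those that stood apart. Low levels of this member were thus found in steers of both phenotypes.

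Steers differed in level, not in presence, for bta-miR-2419-5p. Its lowest, median and highest levels over 6 libraries were 44.3, 59.1 and 164 CPM in SS310, and 4.49, 18.7 and 172 CPM in SS299. The medians of SS274, SS287 and SS294 were 23.1, 37.7 and 39.4 CPM. Among the NS steers, NS242 had 19.2, 50.9 and 80.7 CPM and NS165 2.82, 7.55 and 12.98 CPM. Every SS310 library thus lay above every NS165 library. The medians of NS108, NS152 and NS745 were 24.6, 9.48 and 25.2 CPM. This member kept its call with each steer left out (edgeR adjusted p = 6.95e-06 to 0.0104).

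**Figure D5:**
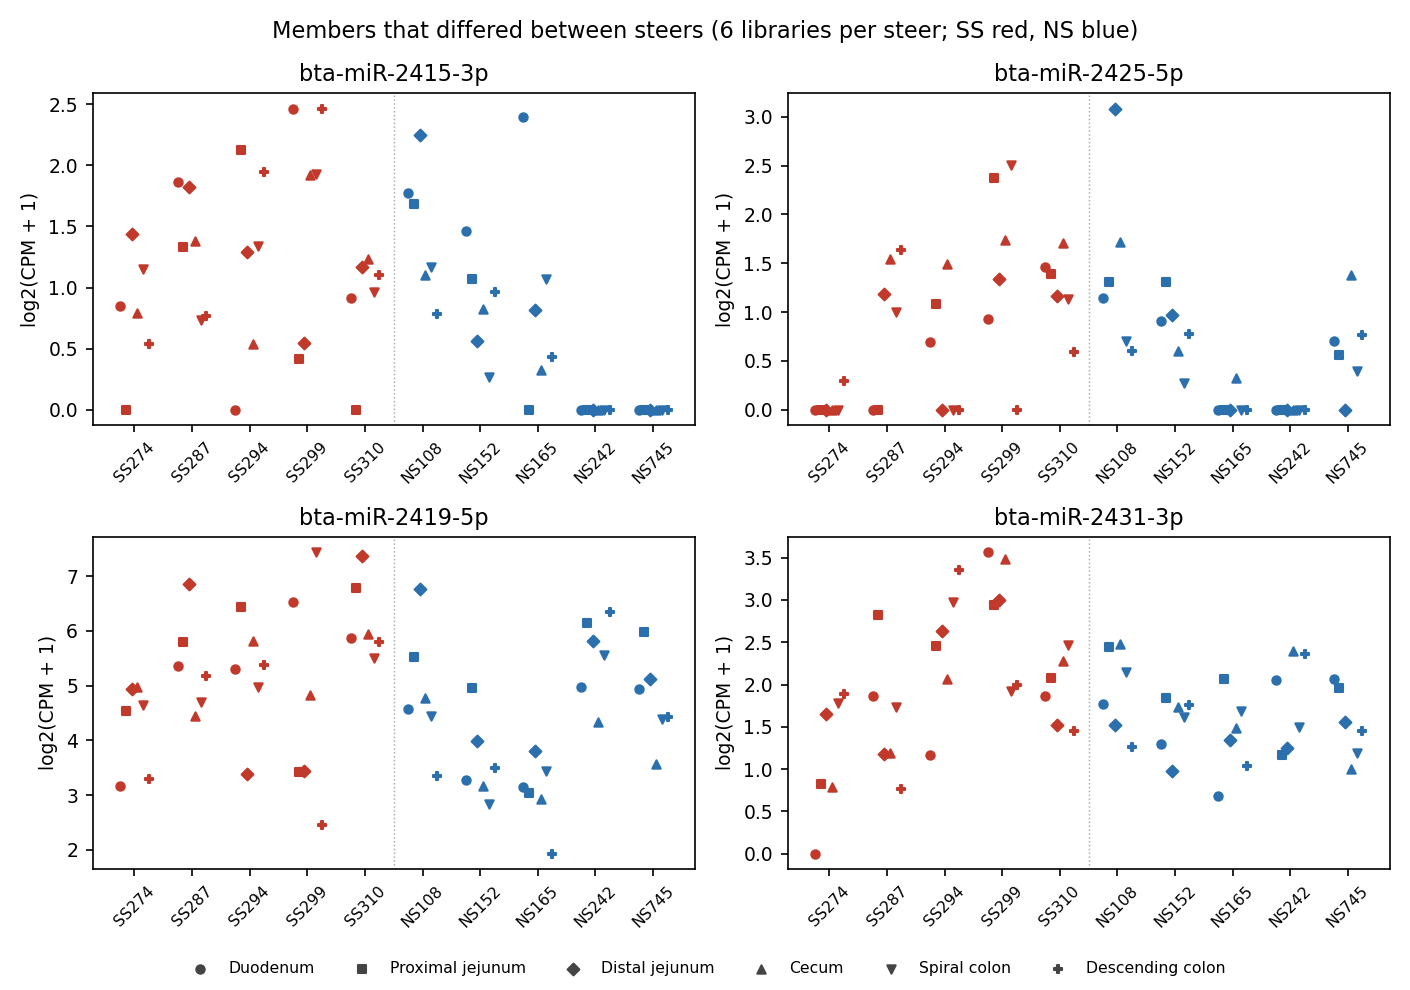
Levels of 4 members in each steer, SS steers (red) left of NS steers (blue), as log2(CPM + 1); each point is 1 of the 6 libraries of a steer and its shape gives the region. All 12 points of bta-miR-2415-3p in NS242 and NS745 lie at 0, as do the 6 points of bta-miR-2425-5p in NS242, and the SS310 points of bta-miR-2419-5p lie above those of NS165.

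For bta-miR-2431-3p, SS299 had the highest median, 6.86 CPM, followed by SS294 at 4.84 CPM, and the other 8 steers lay between 1.45 and 2.93 CPM. Its call was lost without SS299 (edgeR adjusted p = 0.336) and without the 4 SS299 libraries that stood apart (0.383). The highest values of bta-miR-2404, within FHIP1A, were jejunal, at 18.7 and 13.7 CPM in the distal and proximal jejunum of SS310 and 16.2 and 13.7 CPM in the proximal jejunum of NS108 and NS242. All 6 libraries of SS299 were without a count of bta-miR-2427.

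As a description, the share of the variance of log2(CPM + 1) that lay between steers was set beside that between regions for the 14 members detected in at least 30 libraries. Its median was 22.5% for steers and 8.86% for regions, beside 23.8% and 11.3% over the 329 miRNAs of the table that met the same rule. There were more steers than regions, and a division into more groups takes a larger share by chance alone. The shares were not corrected for this, so the gap cannot be read as a larger effect of steers. Without the 4 SS299 libraries the members' medians were 19.9% for steers and 14.0% for regions. Without SS299 altogether they were 18.8% and 16.1%. The gap was narrower in both cases, with the same limit. The largest steer shares were those of bta-miR-2419-5p (47.5%), bta-miR-2431-3p (44.3%), bta-miR-2336 (31.7%), bta-miR-2299-5p (27.7%) and bta-miR-2484 (27.5%). The largest region shares were those of bta-miR-2332 (22.9%), bta-miR-2424 (21.8%), bta-miR-2411-3p (19.7%), bta-miR-2484 (15.7%) and bta-miR-2310 (15.3%). Below these, steer shares of 16.2% to 25.7% were found for bta-miR-2424, bta-miR-2376, bta-miR-2403, bta-miR-2411-3p and bta-miR-2483-5p.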

How the data were processed

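Small RNA libraries (TruSeq) of 6 gut regions from 5 SS and 5 NS steers were analysed; RAJ libraries were not analysed here. After trimming and quality filtering, the authors ran sRNAtoolbox with default settings and deposited a table of whole-number counts for 608 miRNAs in each library, which was used without change. The submitters' processing notes also list Bowtie and edgeR. Genome build and miRBase release: not given in the sources used here. No sample column was set aside (0 unused). Depth ranged from 535373 to 19346766 counts.

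Tests used edgeR 4.0.16 in R 4.3.3 (quasi-likelihood test after TMM scaling, FDR of 10% by Benjamini-Hochberg) on the whole table, for miRNAs that reached a CPM above 1 in 3 or more of the 5 steers of a group, and the members were read out. SS and NS were compared per region and on counts summed per steer; F tests over 60 libraries covered regions, steers and their interaction. Single values were compared by exact two-sided permutation tests (252 splits). Variance shares and correlations used log2(CPM + 1). The study used edgeR's exact test, which was run here as an alternative beside DESeq2 1.42.0 and limma 3.58.1 (voom). Python 3.11.15, numpy 2.4.6, scipy 1.17.1 and pandas 2.3.3 were used, and the tests were tested on simulated data.

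The labels pair libraries by animal: the mean correlation of deviations from group means was 0.142 for pairs of libraries from the same steer (115 of 150 positive) and -0.0127 for pairs from different steers (1350).

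The members and lists were chosen with earlier results of these data known. Members were named where they passed a test, were among the 10 most abundant, were detected in 60 libraries, had the 3 smallest p-values in an SS against NS comparison, were among the 10 largest steer or region variance shares, stood in a single region, or belonged to the 5 most counted arm pairs. For the 3 members with the largest steer share, the 3 most correlated miRNAs were named; bta-miR-677 was named after its values were seen. Gene spans are from RefSeq ARS-UCD2.0. Alternatives were other scalings (RLE, library size alone), filters (filterByExpr, none), an FDR of 5%, the steer as a block, thinning, each steer left out, and fits without the descending colon libraries of NS108 and SS310; fits without 4 SS299 libraries, without libraries under 1000000 counts and, for the summed share, without both were chosen after seeing the data.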

Additional observations from a re-analysis of the deposited data

Results flagged for a closer look

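A sample far from the other 4 of its region and phenotype was found in 16 of 84 groups scanned (Dixon's test, critical value 0.71). For independent and normally distributed values chance gives about 1 in 20. The measures scanned share libraries and members, and the levels were skewed, so the number cannot be set against that rate. Of the NS libraries, NS108 in the cecum had 35 members with a CPM above 1, against 11 to 15 in the other NS libraries, and a summed share of 0.0327%, against 0.00571% to 0.00960%. In the same library bta-miR-2332 was 120 CPM, against 1.28 to 6.67 CPM, and bta-miR-2411-3p 40.0 CPM, against 1.0 to 2.56 CPM. In the duodenum of NS242, 40 members had a CPM above 1, against 12 to 20, the summed share was 0.0290%, against 0.00760% to 0.0125%, and bta-miR-2332 was 98.8 CPM, against 7.24 to 20.9 CPM. These libraries held 875432 and 951834 counts. In the cecum of NS108 the summed endothelial markers were 24572 CPM, against 3479 to 5814 CPM in the other NS libraries. The smooth muscle markers there were 163210 CPM, against 488158 to 707621 CPM.

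In SS310 bta-miR-2332 was 204 CPM in the proximal jejunum, against 0.168 to 42.4 CPM in the other SS libraries, and 225 CPM in the distal jejunum, against 5.33 to 56.0 CPM. There bta-miR-2411-3p was 87.9 CPM, against 0.671 to 21.2 CPM, and 83.1 CPM, against 0.304 to 17.8 CPM. In the cecum of SS299 bta-miR-2411-3p was low, at 1.86 CPM, against 5.11 to 5.90 CPM, and in the spiral colon of NS165 it was 24.3 CPM, against 2.43 to 4.14 CPM. For bta-miR-2419-5p, SS299 had 172 CPM in the spiral colon, against 24.1 to 44.3 CPM, and NS242 had 80.7 CPM in the descending colon, against 2.82 to 20.6 CPM. The descending colon of NS242 also had 47.6 CPM of bta-miR-2336, against 7.41 to 13.9 CPM. This library held 966622 counts. Its endothelial markers summed to 26542 CPM, against 2922 to 5937 CPM in the other NS libraries. Its smooth muscle markers summed to 117475 CPM, against 597697 to 659114 CPM. The part of these marker levels was not tested.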

How the results depend on the processing

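The SS against NS comparisons called 0 members under every alternative run, and the lowest adjusted p over these was 0.109, in the cecum with DESeq2. With the steer as replicate block, 4 members differed between regions (against 5 without it) and the same 4 between the large and small intestine. The count of members that differed between regions was 3 at an FDR of 5%, 3 under filterByExpr, where 9 were tested, 3 without the descending colon libraries of NS108 and SS310, 3 without libraries under 1000000 counts and 8 without the 4 SS299 libraries. Without those 4 libraries, 8 members differed between the large and small intestine and 5 between steers, and the median variance share was 19.9% for steers and 14.0% for regions. The count between steers was 6 under filterByExpr and 7 without the shallow libraries. Shares of all miRNAs called under these alternatives are not given, so the counts cannot be read as particular to the members.

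The SS minus NS difference in the number of members detected, -2.2 (duodenum), 1 (proximal jejunum), -2 (distal jejunum) and 0.6 (descending colon), changed sign without passing the test. It was 2.2 after thinning and 2.4 without shallow libraries in the duodenum, and -9.4 at 1 or more counts, -0.2 after thinning and -3.75 without shallow libraries in the proximal jejunum. It was 2.2 at 1 or more counts and 0.8 without the SS299 libraries in the distal jejunum, and -2.4 at 1 or more counts in the descending colon. Without shallow libraries the summed share was higher in SS by 0.0105 percentage points in the duodenum and 0.00685 in the cecum (exact permutation, adjusted p = 0.0476). With bta-miR-143 also left out of the totals, the groups overlapped in both regions. Without both the shallow and the 4 SS299 libraries the summed share was higher in SS by 0.0092 points in the proximal jejunum, against -0.00709 with all libraries. Only SS274 (0.0111%) and SS310 (0.0553%) were then left in SS. They lay below and above all NS libraries kept (0.0176% to 0.0345%), so the sign rested on SS310.

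With each steer left out in turn, 0 to 10 members differed between regions, 1 to 8 between the large and small intestine and 6 to 11 between steers. The number detected differed by -4.6 to 2.4 for the duodenum, -3.15 to 4.65 for the proximal jejunum, -5.7 to 2.45 for the distal jejunum, -1 to 2.75 for the spiral colon and -1.4 to 5.35 for the descending colon, and the summed share by -0.0146 to 0.00132 points in the proximal and -0.00779 to 0.00822 in the distal jejunum. Median variance shares were 18.8% to 25.5% for steers and 7.96% to 16.1% for regions. Of the values of members that passed a test or had the 3 smallest p-values of a comparison, 686 kept their direction and call, 58 lost the call and 0 changed direction. The 686 include the SS against NS values, where no member had a call to lose, so the 58 fall among the other tests. The F tests of regions and steers give no direction. The causes were not tested. A CPM of 1 is fewer than 2 counts in most libraries, so detection and levels near it are limited by depth.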
